A study of Mus musculus with 6 samples.

Results

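The 37 genes described here are the tumour suppressor p53 (Trp53), its regulators and well known targets, and the proteins that set or carry out apoptosis. They were taken by symbol from a fixed list, and 33 of the 37 were measured, out of 22180 genes on the array with a single symbol. Gadd45a and Ddb2 were carried only by probe sets with several gene symbols, and Trp53 and Bax by no probe set listed with a single symbol, so these 4 are not analysed here. No filter on low values was applied, so all 33 entered the comparison.

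RNA was measured on Affymetrix Mouse Gene 2.0 ST arrays in cells sorted magnetically from mouse gliomas with an antibody against CD105 and then exposed for 12 h to glioma-conditioned medium; the labels call them tumor-associated endothelial cells. Both groups carried the floxed Pfn1 alleles and the Y129F form of Pfn1 (Pfn1fl/fl:Y129F). The 3 Tie2-Cre mice (mice 1, 3 and 4) also carried Cre under the Tie2 promoter, which is active in endothelial and some blood cells, and the 3 no Cre mice (mice 6, 7 and 10) did not. The sources used here give neither the way Cre rearranges these alleles nor the ages of the mice. The question of the series is the role of profilin-1 phosphorylation in gene expression; profilin-1 binds actin. Values are log2 intensities, and changes are Tie2-Cre minus no Cre on that scale, and SE is the standard error from a limma fit over all 22180 genes. A gene passed when its adjusted p (limma, Benjamini-Hochberg over all genes) was under 0.05. Separate cultures are not stated beyond 1 array per mouse, so the p-values measure the spread between these 6 arrays.

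p53 is a transcription factor that accumulates after DNA damage and other stress and switches on genes for cell cycle arrest, DNA repair and cell death. The ligase MDM2 marks p53 for degradation and is itself a p53 target, which makes a feedback loop. Apoptosis through mitochondria is decided within the BCL-2 family: BH3-only proteins sense stress and bind the anti-apoptotic members, BAX and BAK1 open the outer membrane, and cytochrome c then assembles APAF1 and caspase-9. Death receptors act through caspase-8, which CFLAR holds back.

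Promoter windows of RefSeq genes, from 250 bases before to 50 after the annotated start, were searched for the p53 half-site consensus, a motif of 10 bases of which p53 binds a pair. Windows were found for 28 of the 33 measured genes (42 windows, since some genes have several starts). The half-site occurred on either strand in 9 of these 42 windows (21.4%), in 8 genes, against 2742 of all 32817 windows (8.36%). The hits of Aen lie in a pair of overlapping windows and are the same bases. The genes with a hit were Aen, Bmf, Ccng1, Cdkn1a, Ei24, Mdm2, Polk and Sesn1. Of these, Mdm2 and Polk were lower with Tie2-Cre and the others did not pass the threshold. Plk2, also lower, and Bcl2, higher, had no match in their windows, and Pmaip1, lower, had no window. The 4 windows below are shown because they set p53 targets with different calls beside Cdkn2b: Mdm2 was lower with Tie2-Cre, Cdkn1a and Ccng1 did not pass the threshold, and Cdkn2b, the gene with the largest change of the 33, holds no match. Capitals mark the half-site and all other bases are in lower case.
Mdm2 promoter, GRCm38.p6, chr10:117710709-117711008, minus strand: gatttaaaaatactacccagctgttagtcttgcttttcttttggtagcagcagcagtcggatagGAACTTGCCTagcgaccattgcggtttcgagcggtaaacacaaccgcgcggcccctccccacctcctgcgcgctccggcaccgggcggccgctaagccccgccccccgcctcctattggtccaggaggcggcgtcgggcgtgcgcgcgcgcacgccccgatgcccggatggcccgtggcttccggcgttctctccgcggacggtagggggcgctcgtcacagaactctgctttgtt
Cdkn1a promoter, GRCm38.p6, chr17:29090729-29091028, plus strand: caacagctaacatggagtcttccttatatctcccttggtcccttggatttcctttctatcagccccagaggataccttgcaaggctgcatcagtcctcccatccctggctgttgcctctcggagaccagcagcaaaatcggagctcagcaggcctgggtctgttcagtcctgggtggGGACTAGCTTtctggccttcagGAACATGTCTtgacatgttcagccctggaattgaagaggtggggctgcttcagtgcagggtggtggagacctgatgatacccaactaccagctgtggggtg
Ccng1 promoter, GRCm38.p6, chr11:40755237-40755536, minus strand: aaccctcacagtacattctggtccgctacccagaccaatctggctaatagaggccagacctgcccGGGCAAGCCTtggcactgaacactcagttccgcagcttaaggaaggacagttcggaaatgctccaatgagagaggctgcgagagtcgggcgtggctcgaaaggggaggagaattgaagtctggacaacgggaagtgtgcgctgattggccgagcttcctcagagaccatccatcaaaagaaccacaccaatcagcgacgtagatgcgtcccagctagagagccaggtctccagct
Cdkn2b promoter, GRCm38.p6, chr4:89310983-89311282, minus strand: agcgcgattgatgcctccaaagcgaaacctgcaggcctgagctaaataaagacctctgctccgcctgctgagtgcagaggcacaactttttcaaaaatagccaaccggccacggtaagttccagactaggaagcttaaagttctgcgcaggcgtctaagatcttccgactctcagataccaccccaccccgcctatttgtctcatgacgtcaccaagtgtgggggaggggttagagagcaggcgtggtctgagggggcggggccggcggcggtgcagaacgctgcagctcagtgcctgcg
The Mdm2 match begins 186 bases before the start and the Ccng1 match 185 bases before it. The matches of Cdkn1a begin 73 and 51 bases before the start of 1 of its 2 windows, and the other window holds none. A match is a description of these letters, and says nothing of p53 binding in these cells.

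Of the 33 measured genes, 2 were higher with Tie2-Cre (Cdkn2b and Bcl2), 4 were lower (Mdm2, Plk2, Polk and Pmaip1) and 27 did not pass the threshold. The 6 genes are 18.2% of the 33, beside 12.0% of all genes tested, and in the separate directions the backgrounds were 4.78% higher and 7.17% lower. The same backgrounds apply to the counts of smaller groups and other lists below. The arrays of the groups did not overlap in 17 of the 33 (51.5%), 5 with Tie2-Cre above and 12 with Tie2-Cre below, beside 31.0% of all genes (13.6% above and 17.5% below). The median change over the 33 was -0.04, and that over all genes -0.0042. Leaving out 1 mouse changed the counts: 1 member was higher without Tie2-Cre mouse 1 or 3, and 2 were lower without any of Tie2-Cre mouse 1, no Cre mouse 6 and no Cre mouse 7. Over all genes, 1061 were higher and 1591 lower. Without no Cre mouse 6, 7 or 10 the higher genes numbered 667, 676 and 634, and the lower ones 1022, 910 and 1026, with 1046 lower without Tie2-Cre mouse 1. The number of higher genes without Tie2-Cre mouse 1 or 3 is not given here. The 18.2% beside 12.0% therefore describes the fit with all 6 arrays only.

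**Figure D1:**
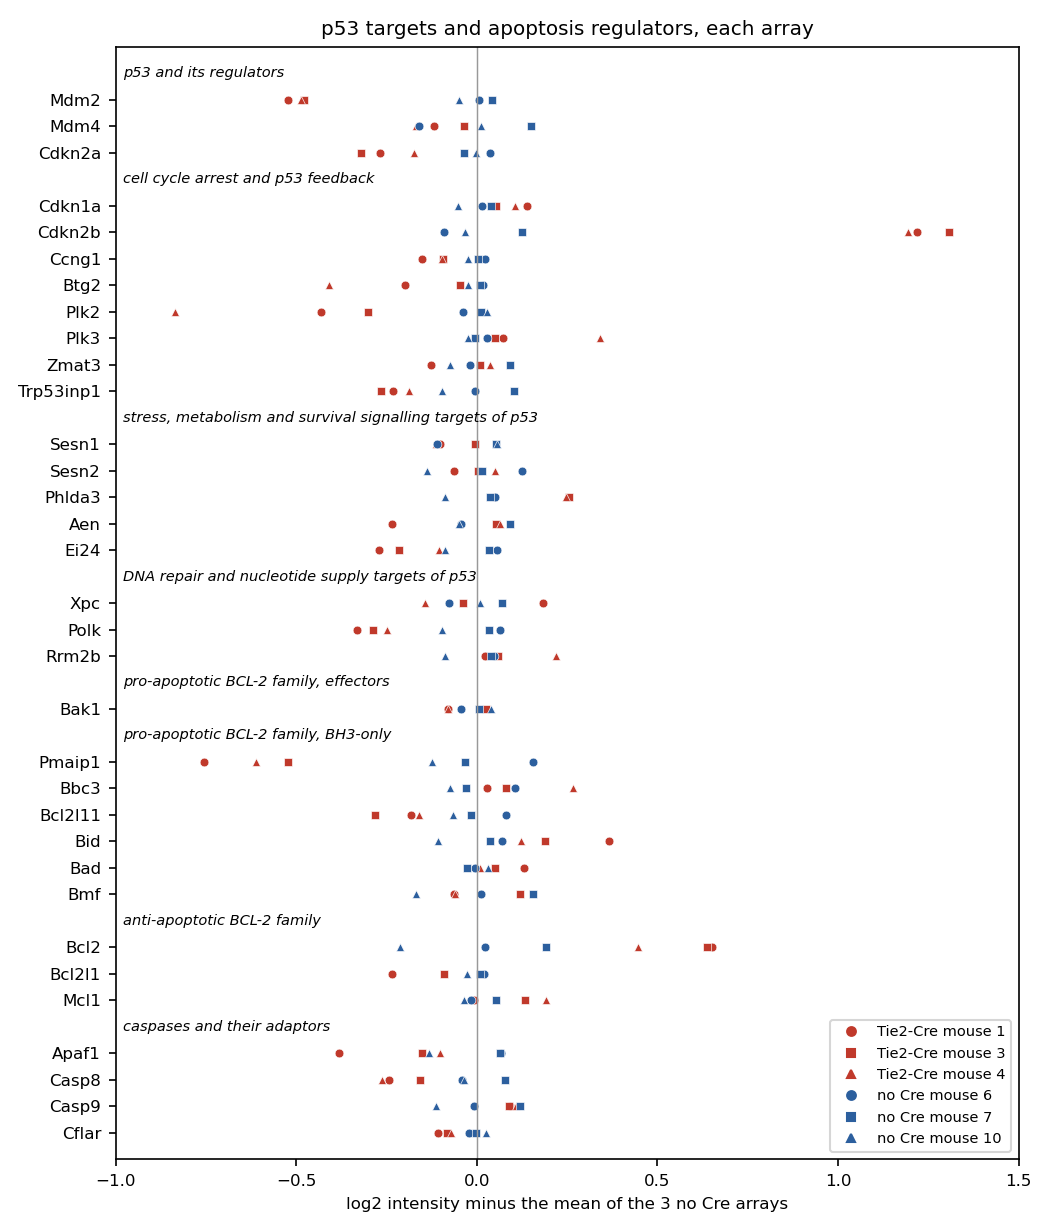
Log2 intensity of each measured gene on each array, minus the mean of the 3 no Cre arrays (x axis, log2), with the genes grouped by role; red points are Tie2-Cre arrays, blue points no Cre arrays, and the marker shape gives the mouse. Cdkn2b stands to the right with its 3 Tie2-Cre arrays at 10.42 to 10.53 against 9.13 to 9.35 without Cre, while most genes lie close to 0.

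The groups also differed in ways that touch every gene below. Xist was at 5.36 to 6.06 in the Tie2-Cre arrays and at 11.16 to 11.44 in the others, and the Y-linked Uty, Eif2s3y and Kdm5d ran the other way in all 6 arrays, so genotype and the sex of the mice cannot be told apart. Pfn1 lay at 12.41, 12.41 and 12.41 with Tie2-Cre and at 12.38, 12.34 and 12.39 without Cre (change 0.04, SE 0.062, limma adjusted p 0.776), and its probe set does not distinguish the alleles. Of the endothelial markers the means over all arrays were 6.23 for Pecam1, 6.89 for Cdh5 and 5.79 for Tek, and 11.91 for Eng, the sorting antigen; with no detection call on these arrays, presence or absence cannot be read from them. The summed level of 10 mesothelial and epithelial markers was 10.52 to 10.69 with Tie2-Cre and 11.76 to 11.92 without Cre (log2 of the sum), with 3 of the 10 lower and 0 higher. With any 1 mouse other than no Cre mouse 7 left out, 2 were lower. The median change of this list was -0.11, and 4 of the 10 changes were above 0. Msln differed by -0.09 (SE 0.087, limma adjusted p 0.616). The summed level of 10 pericyte and smooth muscle markers was 14.88 to 15.15 against 14.39 to 14.48, with 5 higher and 0 lower. With any one of mice 1, 6, 7 and 10 left out, 3 were higher. For 10 fibroblast markers the sum was 14.40 to 14.56 against 14.24 to 14.26 (5 higher, 1 lower). For 12 macrophage and microglia markers it was 10.39 to 10.46 against 10.61 to 10.68 (0 higher, 3 lower, and 2 lower with any 1 mouse left out). For 15 endothelial markers it was 12.25 to 12.33 against 12.42 to 12.47 (1 higher, 1 lower). Of these, 0 were higher with mouse 6, 7 or 10 left out, and 0 lower with any one of mice 1, 4, 6, 7 and 10 left out. The endothelial median change was 0.01, with 9 of the 15 changes above 0, while Eng changed by -0.30 (SE 0.064, limma adjusted p 0.0217). For 10 glial and neuronal markers the sum was 11.40 against 10.92 to 10.94 (2 higher, 0 lower). Their median change was -0.0006, with 5 of the 10 changes above 0. Such a sum follows the brightest genes of its list. The 8 T and NK cell markers summed to 9.29 to 9.44 and 9.25 to 9.33, with 0 past the threshold by limma and 1 at an unadjusted p under 0.05. No value on these arrays is 0. The part of these differences in the results below was not tested, and in a mixed sample fewer cells of a type and less RNA per cell cannot be told apart.

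Among the regulators of p53, Mdm2 was lower with Tie2-Cre. Its log2 intensity was 10.65, 10.70 and 10.69 in Tie2-Cre mice 1, 3 and 4 and 11.18, 11.22 and 11.13 in no Cre mice 6, 7 and 10. The groups were tight and stood well apart, with SDs of 0.023 and 0.045 (n = 3 each). The change was -0.50 (SE 0.064, adjusted p 0.0022), or 0.709 of the no Cre level, and it passed with any 1 mouse left out. The call was lost by an unadjusted p with a 1.5-fold change. Mdm4, the MDM2 relative that binds and restrains p53 without degrading it by itself, lay at 8.86 to 8.995 with Tie2-Cre and 8.87 to 9.18 without Cre. These ranges overlap, and the change was -0.11 (SE 0.092, 95% interval -0.32 to 0.10, adjusted p 0.542).

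Cdkn2a encodes both the CDK inhibitor p16INK4a and, from another reading frame, p19ARF, which binds MDM2 and so shields p53. It lay at 8.83, 8.78 and 8.92 with Tie2-Cre and at 9.13, 9.06 and 9.10 without Cre. All 3 Tie2-Cre arrays were below all no Cre arrays, but the change of -0.25 (SE 0.069, 95% interval -0.41 to -0.09) narrowly missed the threshold (adjusted p 0.0532). It passed under 4 alternatives: with the dimmest 33.3% of genes left out (adjusted p 0.0235), a minimum mean log2 of 5 (0.0395), array weights (0.045) and a trended, robust eBayes (0.0208). The adjusted p ran from 0.0208 to 0.16 over its alternatives. The probe set does not separate the transcripts for p16INK4a and p19ARF.

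Cdkn2b, the next protein-coding gene to Cdkn2a on chromosome 4, changed most of the 33 and in the other direction. It encodes p15INK4b, an inhibitor of CDK4 and CDK6 best known as a target of TGF-beta signalling rather than of p53. Its level was 10.44, 10.53 and 10.42 with Tie2-Cre and 9.13, 9.35 and 9.19 without Cre. Every Tie2-Cre array was over 1 log2 unit above the highest no Cre array. The change was 1.24 (SE 0.080, adjusted p 8.98e-05), a 2.36-fold higher level, and over all alternatives it stayed between 1.19 and 1.30 with adjusted p of 0.00119 at most. Summed pericyte and smooth muscle markers were higher in the same arrays (14.88 to 15.15 against 14.39 to 14.48). So were summed fibroblast markers (14.40 to 14.56 against 14.24 to 14.26) and summed glial and neuronal markers (11.40 against 10.92 to 10.94). The median changes of these lists were 0.41, 0.48 and -0.0006, in that order. Of the 10 glial and neuronal changes, 5 were above 0. The part of these markers in the Cdkn2b difference was not tested.

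**Figure D2:**
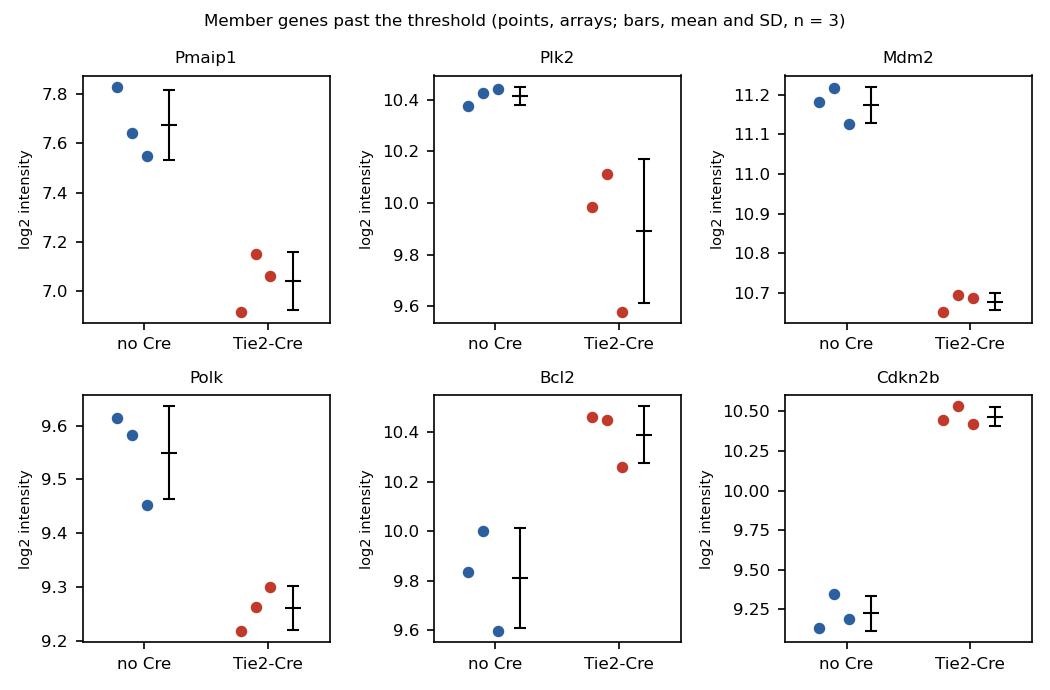
Log2 intensity (y axis, not starting at 0) of the 6 member genes past the threshold in no Cre (blue) and Tie2-Cre (red) arrays, each point 1 mouse, with the mean and SD of each group beside it (n = 3). The groups do not overlap in any panel, and the Tie2-Cre arrays of Plk2 spread most, from 9.58 to 10.11.

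The CDK inhibitor p21, encoded by Cdkn1a and the best known p53 target for cell cycle arrest, did not pass the threshold. Cdkn1a lay at 12.60, 12.51 and 12.57 with Tie2-Cre and 12.47, 12.50 and 12.41 without Cre. The groups did not overlap, but the change was only 0.10 (SE 0.066, 95% interval -0.05 to 0.25, adjusted p 0.42). The interval of Mdm2, another p53 target, was -0.64 to -0.35, and the difference between these genes was not tested. Ccng1, the p53 target cyclin G1, lay at 13.19 to 13.24 with Tie2-Cre and 13.31 to 13.36 without Cre. Its change of -0.11 (SE 0.063, adjusted p 0.32) passed only with a trended, robust eBayes (adjusted p 0.0466, within 0.0466 to 0.515 over its alternatives).

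Plk2, a polo-like kinase induced by serum, growth factors and p53, was lower with Tie2-Cre. It lay at 9.99, 10.11 and 9.58 in Tie2-Cre mice 1, 3 and 4 and at 10.38, 10.43 and 10.44 in no Cre mice 6, 7 and 10. The no Cre arrays were almost alike (SD 0.034, n = 3), whereas Tie2-Cre mouse 4 lay well below the other Tie2-Cre mice (SD 0.28, n = 3). The change was -0.52 (SE 0.13, adjusted p 0.0372). It was -0.37 without Tie2-Cre mouse 4, and the call was lost without Tie2-Cre mouse 1 (adjusted p 0.0704) and without mouse 6, 7 or 10 of the no Cre group (0.0836, 0.105 and 0.111), within 0.0144 to 0.111 over its alternatives, which include an adjusted p of 0.0974 with the probe sets lacking a single symbol added to the test. An unadjusted p with a 1.5-fold change also lost the call of Plk2. The related kinase Plk3 lay at 8.62, 8.59 and 8.89 with Tie2-Cre and 8.57, 8.54 and 8.52 without Cre, where again Tie2-Cre mouse 4 stood apart, here above. Its change of 0.15 (SE 0.091) did not pass (adjusted p 0.351) and was 0.06 without that mouse.

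The other 3 arrest and feedback genes did not pass by limma, and 1 of them, Trp53inp1, had an unadjusted p under 0.05 (0.0158). Trp53inp1, a nuclear protein that promotes p53 activity, lay at 10.02 to 10.10 with Tie2-Cre and 10.19 to 10.39 without Cre. Its change of -0.23 (SE 0.075, adjusted p 0.0956) passed with the dimmest 33.3% left out (adjusted p 0.048) and a trended, robust eBayes (0.0271), within 0.0271 to 0.26 over its alternatives. The antiproliferative gene Btg2 lay at 9.36, 9.51 and 9.15 with Tie2-Cre and 9.53 to 9.57 without Cre (change -0.22, SE 0.097, adjusted p 0.211). As with Plk2, Tie2-Cre mouse 4 was the lowest array, and the change was -0.12 without it. Zmat3, a zinc finger protein that binds RNA, overlapped between the groups (change -0.03, adjusted p 0.883).

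Targets of p53 in metabolism and survival signalling gave 0 of 5 past the threshold by limma, of which 1, Ei24, had an unadjusted p under 0.05 (0.0324). Ei24, a membrane protein of the endoplasmic reticulum with a role in autophagy, lay at 11.25, 11.31 and 11.42 with Tie2-Cre and 11.58, 11.56 and 11.44 without Cre. The groups just missed overlapping, with a change of -0.20 (SE 0.077, adjusted p 0.152), and a trended, robust eBayes gave an adjusted p of 0.0379 (range 0.0379 to 0.34 over its alternatives). Phlda3, which blocks AKT by competing for membrane lipids, lay at 11.05 to 11.25 with Tie2-Cre and 10.91 to 11.05 without Cre (change 0.18, SE 0.083, adjusted p 0.225). The sestrins Sesn1 and Sesn2, which restrain mTORC1, differed by -0.07 and -0.0045 (95% intervals -0.25 to 0.10 and -0.20 to 0.19). Aen, an apoptosis-enhancing nuclease, differed by -0.04 (95% interval -0.26 to 0.19).

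Among DNA repair genes, Polk was lower. It encodes DNA polymerase kappa, which copies past damaged bases. Its level was 9.22, 9.26 and 9.30 with Tie2-Cre and 9.62, 9.58 and 9.45 without Cre. The groups did not overlap, and the change was -0.29 (SE 0.072, adjusted p 0.0379), or 0.818 of the no Cre level. Of the 6 calls this was the one lost most often. It was lost without Tie2-Cre mouse 1, 3 or 4 (adjusted p 0.105, 0.0912 and 0.0631) and without no Cre mouse 6 or 7 (0.129 and 0.12). It was also lost with arrays centred on their medians (0.0542) and with the probe sets lacking a single symbol added to the test (0.0907). An unadjusted p with a 1.5-fold change lost it too. Xpc, the damage sensor of nucleotide excision repair, had like means in both groups (7.39 and 7.39; 95% interval of the change -0.22 to 0.22). Rrm2b, the p53-induced subunit of ribonucleotide reductase, differed by 0.10 (95% interval -0.09 to 0.29).

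Of the 6 BH3-only genes, 1 was lower with Tie2-Cre (16.7%, beside 7.17% of all genes), 0 were higher and 5 did not pass. Pmaip1, which encodes NOXA, a p53 target that binds MCL1, was the lower one. It lay at 6.92, 7.15 and 7.06 with Tie2-Cre and at 7.83, 7.64 and 7.55 without Cre. The highest Tie2-Cre array was below the lowest no Cre array, and the change of -0.63 (SE 0.097, adjusted p 0.0049) was the largest fall of the 33, to 0.646 of the no Cre level. It passed under all 15 alternatives, with adjusted p of at most 0.0221 among the 14 that adjust p. The summed level of mesothelial and epithelial markers was lower in the same arrays (10.52 to 10.69 against 11.76 to 11.92), with a median change of -0.11. Summed macrophage and microglia markers (10.39 to 10.46 against 10.61 to 10.68) and summed endothelial markers (12.25 to 12.33 against 12.42 to 12.47) were also lower. The median change was -0.06 for the macrophage and microglia list and 0.01 for the endothelial list. Of the 15 endothelial changes, 9 were above 0. The part of these markers in the fall of Pmaip1 was not tested.

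Bbc3, which encodes PUMA, the other main BH3-only target of p53, lay at 6.68 to 6.92 with Tie2-Cre and 6.58 to 6.76 without Cre. The groups overlapped and the change was 0.12 (SE 0.088, 95% interval -0.08 to 0.33, adjusted p 0.448). Bcl2l11, which encodes BIM, a BH3-only protein controlled by FOXO factors and ERK rather than p53, lay at 6.80 to 6.92 with Tie2-Cre and 7.01 to 7.16 without Cre. Its arrays did not overlap, but the change of -0.21 (SE 0.073) did not pass (adjusted p 0.117). Bid, whose product is cut and activated by caspase-8, lay at 7.77, 7.60 and 7.53 with Tie2-Cre and 7.48, 7.45 and 7.30 without Cre, also without overlap (change 0.23, SE 0.088, adjusted p 0.157). Bad, which growth factor signalling inactivates by phosphorylation, differed by 0.06 (95% interval -0.09 to 0.22), and Bmf, a BH3-only protein tied to the cytoskeleton, by -0.0019 (95% interval -0.23 to 0.23). Bak1, the one pore-forming effector among the 33, lay at 9.54 to 9.65 and 9.58 to 9.66, a change of -0.04 (95% interval -0.20 to 0.11).

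Of the anti-apoptotic members, Bcl2 was higher with Tie2-Cre. It lay at 10.46, 10.45 and 10.26 with Tie2-Cre and at 9.83, 10.00 and 9.60 without Cre. All Tie2-Cre arrays were above all no Cre arrays, and no Cre mouse 10 was the lowest. The change was 0.58 (SE 0.11, adjusted p 0.0143), a 1.49-fold higher level. The call was lost without Tie2-Cre mouse 1 or 3 (adjusted p 0.0542 and 0.0526) and by an unadjusted p with a 1.5-fold change. A second, dim probe set of Bcl2, with a mean of 5.85, differed by only 0.05 (SE 0.12), and with the mean of both probe sets the change was 0.31. Bcl2l1, which encodes BCL-xL, lay at 8.50, 8.64 and 8.74 with Tie2-Cre and 8.70 to 8.75 without Cre (change -0.10, SE 0.080, adjusted p 0.492). Mcl1, a short-lived protein and the main partner of NOXA, lay at 10.59 to 10.79 and 10.56 to 10.65 (change 0.11, SE 0.076, adjusted p 0.462). Its second probe set, with a mean of 6.76, went the other way (change -0.16, SE 0.10) and did not pass either.

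The caspases and their adaptors gave 0 of 4 past the threshold by limma, with 1, Casp8, at an unadjusted p under 0.05 (0.0138). Casp8, the initiator caspase of death receptors, lay at 10.88, 10.96 and 10.86 with Tie2-Cre and 11.08, 11.20 and 11.08 without Cre. The groups did not overlap; the change was -0.22 (SE 0.070, adjusted p 0.0878), and it passed with the dimmest 33.3% left out (0.0425) and a trended, robust eBayes (0.0152), within 0.0152 to 0.241 over its alternatives. Its inhibitor Cflar, the next protein-coding gene on chromosome 1, lay at 10.50 to 10.53 (Tie2-Cre) and 10.58 to 10.63 (no Cre), a small shift without overlap (change -0.09, SE 0.062, adjusted p 0.457). Apaf1, the scaffold of the apoptosome, lay at 8.49, 8.72 and 8.77 against 8.74 to 8.94 (change -0.21, SE 0.098, adjusted p 0.232), with Tie2-Cre mouse 1 the lowest and a change of -0.13 without it. Casp9, the caspase it activates, differed by 0.10 (95% interval -0.08 to 0.27).

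**Figure D3:**
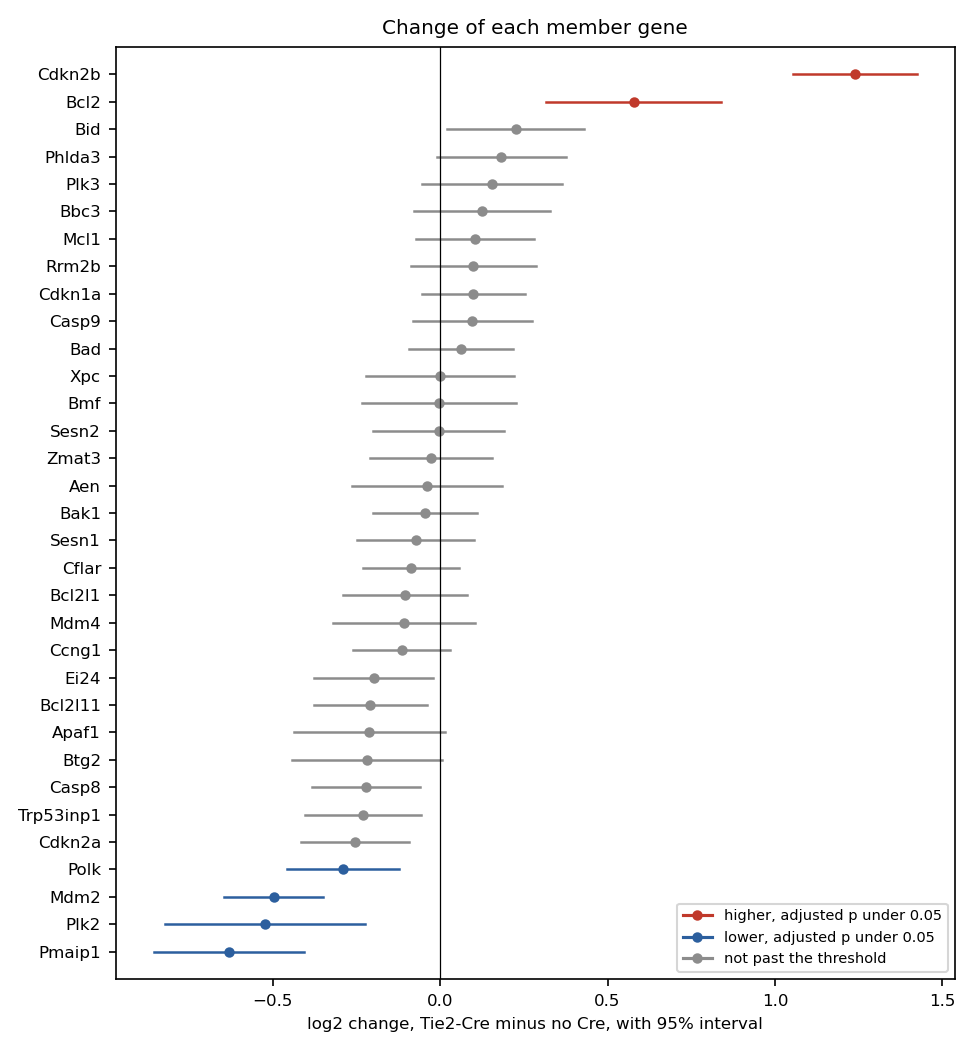
Change of each measured member gene (x axis, Tie2-Cre minus no Cre, log2), ordered by size, with its unadjusted 95% interval from the limma fit; red and blue mark genes past the threshold. Pmaip1 at -0.63 and Cdkn2b at 1.24 are the ends of the range, and 26 of the 33 changes are smaller than 0.25 in either direction.

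The wider pathway was read from further lists that share no gene with the 33; Fas and Tnfrsf10b stand in 2 of these lists. The 32 other p53 targets measured comprised 6 lower, 2 higher and 24 without a call, with a median change of -0.11. The called share was 25%, beside 12.0% of all genes. Lower were Perp, a desmosomal gene (-1.94, SE 0.20, adjusted p 0.000734), the spindle protein gene Ckap2 (-0.97, SE 0.14) and the transcriptional repressor Bcl6 (-0.54, SE 0.11). Higher were Igfbp3, which binds insulin-like growth factors (0.55, SE 0.069, adjusted p 0.00189), and the ferrireductase Steap3 (0.66, SE 0.15, adjusted p 0.0258). Steap3 passed without Tie2-Cre mouse 4 and lost its call with any other mouse left out (adjusted p 0.0595 to 0.0881), and Bcl6 lost it without mouse 1 (Tie2-Cre), 6 or 10 (both no Cre; 0.0535, 0.056 and 0.0517). With a mouse left out, the list held 2 to 4 lower genes and 1 or 2 higher ones. The summed level of mesothelial and epithelial markers was lower in the same arrays (10.52 to 10.69 against 11.76 to 11.92), with a median change of -0.11. The part of these markers in the fall of Perp was not tested.

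Of 27 upstream kinases and cofactors of p53, 4 were lower, 0 higher and 23 did not pass (median -0.07). The 4 are 14.8% of this list, beside 7.17% of all genes lower and 12.0% called in either direction. The lower ones were the DNA damage kinases Atm (-0.42, SE 0.075, adjusted p 0.0101), Chek2 (-0.44, SE 0.088, adjusted p 0.0161) and Atr (-0.36, SE 0.075, adjusted p 0.0175), and the nuclear body gene Pml (-0.46, SE 0.086, adjusted p 0.0116); Atr was named after its value was seen. Without Tie2-Cre mouse 1 Chek2 and Atr lost their calls (adjusted p 0.0572 and 0.0574), and the list held 2 lower genes. Atr also lost its call without no Cre mouse 6 or 7 (0.0689 and 0.0642). Among 30 other caspases, death receptor genes and inhibitors, 27 did not pass (median -0.04) and 0 were higher. Another 3 were lower, 10% of the list beside 7.17% of all genes lower and 12.0% called in either direction. These were Birc5, the gene of the mitotic protein and apoptosis inhibitor survivin (-0.72, SE 0.12, adjusted p 0.00762), the oxidoreductase Aifm2 (-0.50, SE 0.097, adjusted p 0.0144) and the death receptor Tnfrsf10b (-0.34, SE 0.076, adjusted p 0.0253). Aifm2 lost its call without mouse 1 or 10 (0.0535 and 0.0586), and Tnfrsf10b without any of mice 1, 4, 6 and 7 (0.0649 to 0.087). Without Tie2-Cre mouse 1 the list held 1 lower gene, without no Cre mouse 6, 7 or 10 it held 2, and without Tie2-Cre mouse 4 it held 3 higher ones.

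Cyclins, cyclin-dependent kinases and their other regulators split into 10 lower, 2 higher and 18 without a call among 30 measured (median -0.10). The called share was 40%, beside 12.0% of all genes. The mitotic kinase Cdk1 (-1.05, SE 0.082, adjusted p 0.000221), the repressor E2f8 (-0.83, SE 0.074) and cyclin E1 (Ccne1, -0.82, SE 0.090) were lower. The D-type cyclins Ccnd1 (0.54, SE 0.070, adjusted p 0.00223) and Ccnd3 (0.47, SE 0.062, adjusted p 0.00236) were higher. Cyclin D with CDK4 and CDK6 is the complex that p15INK4b, the Cdkn2b product, inhibits; Cdk4 and Cdk6 differed by -0.06 and -0.03 and did not pass. With a mouse left out, 7 to 9 genes of this list were lower and 2 higher.

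**Figure D4:**
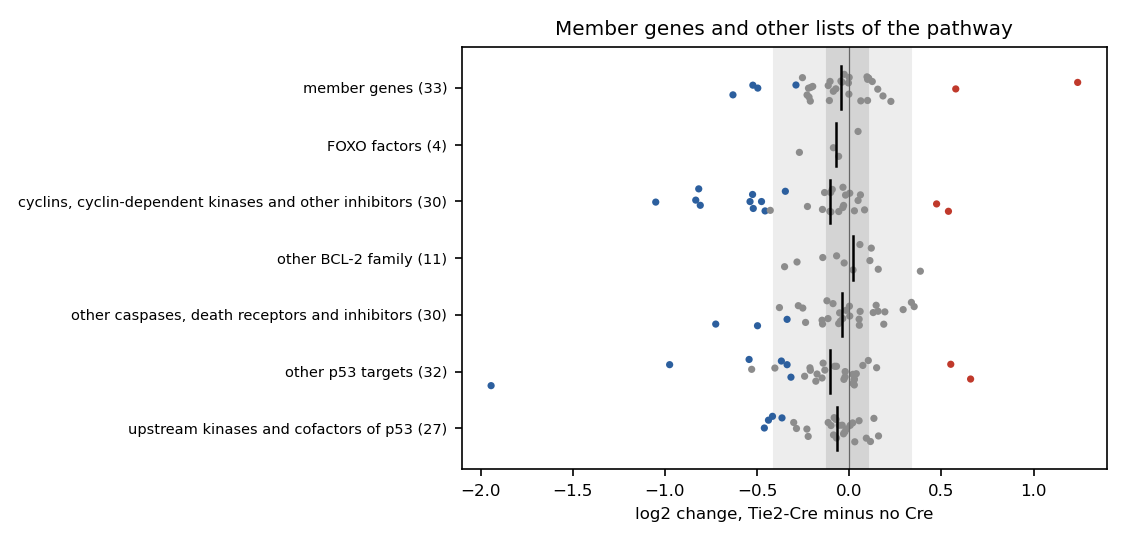
Change of each measured gene (x axis, Tie2-Cre minus no Cre, log2) in the 33 member genes and in other lists of the pathway, with the number measured in brackets; red and blue points passed the threshold, grey ones did not, and a black bar marks each median. The light and dark bands hold the middle 90% (-0.41 to 0.33) and 50% (-0.12 to 0.10) of all genes, and the member genes have a median of -0.04.

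**Figure D5:**
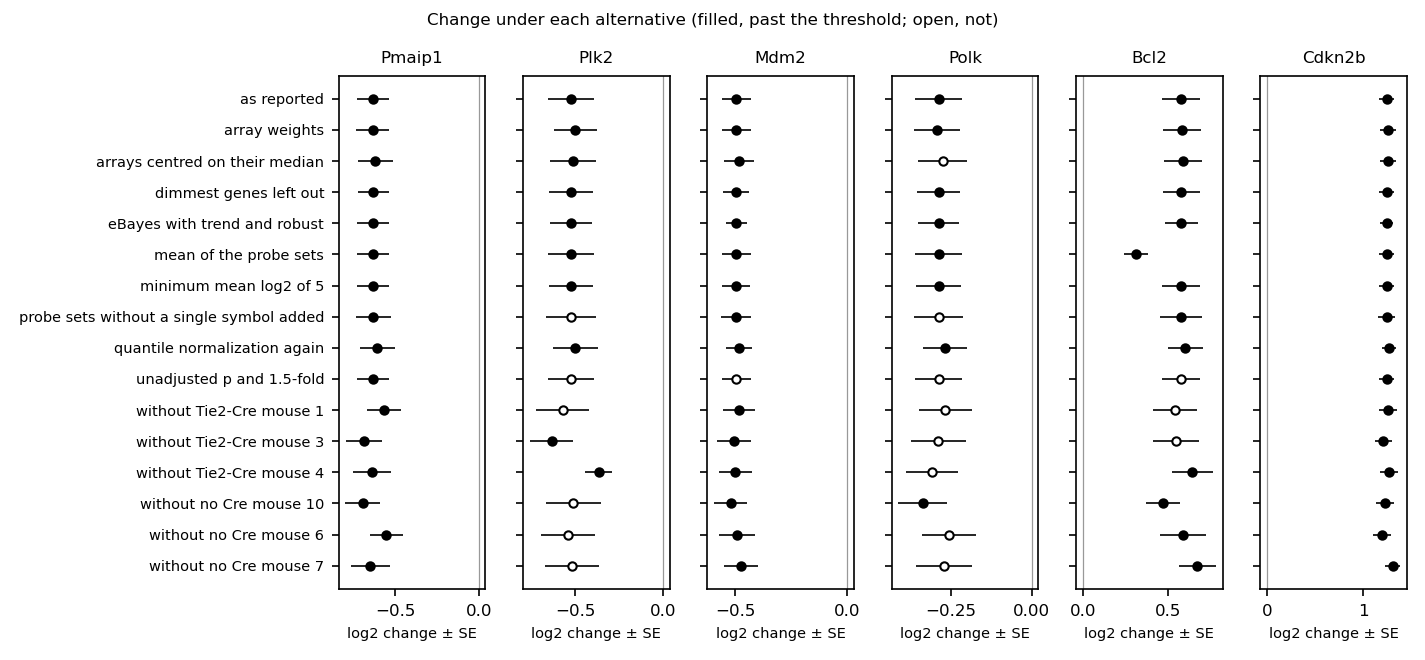
Change (x axis, log2, with SE) of the 6 member genes past the threshold, as reported and under each of 15 alternatives (y axis); filled points passed the threshold and open points did not. Cdkn2b and Pmaip1 passed throughout, and Polk was open most often.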

How the data were processed

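RNA of 6 mice was hybridized to Affymetrix Mouse Gene 2.0 ST arrays, 1 array per mouse. The authors deposited linear intensities (5.128 to 17822), which per the labels are RMA values from Affymetrix Expression Console; the program's version and a genome build are not given in the sources used here. RMA includes background correction and quantile normalization. The log2 of these values was taken without further scaling. The annotation gave 1 gene symbol to 23521 of 41345 probe sets, several to 1814 and none to 16010; identifiers of 23328 were found in RefSeq and 0 symbols were updated. A gene with several probe sets was represented by its brightest (mean of the 6 arrays), giving 22180 genes. With no detection call, the change of a dim gene is understated by the background, and the number of arrays limits the precision (median SD 0.102 and 0.0892 log2 in the Tie2-Cre and no Cre groups).

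The test was limma 3.58.1, run in R 4.3.3 (default lmFit and eBayes, two-sided, Benjamini-Hochberg over all genes, threshold 0.05), files being read with the R package data.table, version 1.17.8; the steps were tested on simulated data. All member genes were named, and of each further list up to 3 genes in each direction with the smallest p among those past the threshold. The members and lists were chosen with earlier results of these data known. Mouse numbers differ between the groups, so mice were not paired. The 15 alternatives were added probe sets, filters at a mean log2 of 5 and at the dimmest 33.3%, another quantile normalization, centring, the mean of probe sets, eBayes with trend and robust, array weights, an unadjusted p with a 1.5-fold change, and leaving out each mouse. Promoter windows are RefSeq's on GRCm38.p6, used for their sequence only.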

Additional observations from a re-analysis of the deposited data

How the results depend on the processing

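Cdkn2b and Pmaip1 kept their call and direction under all 15 alternatives. Over the 33 genes, 443 of 495 single values kept direction and side of the threshold, 18 lost a call, 10 gained one and 24 changed sign, the last in genes that did not pass. The 4 lower members became 7 with the dimmest 33.3% left out, 9 with eBayes with trend and robust, 2 with the added probe sets and 1 by an unadjusted p with 1.5-fold, where 1 was also higher in place of 2. Leaving out 1 mouse gave 2 to 3 lower and 1 to 2 higher, and a median of -0.09 to -0.03. The number of genes or arrays differs between some of these alternatives, and the cause of the shifts was not tested. Over all genes, the unadjusted p with 1.5-fold gave 424 higher and 551 lower. The share of all genes called is not given here for 3 settings. These are the dimmest genes left out (14786 genes tested), eBayes with trend and robust (22180) and the added probe sets (40004). The member counts under them are therefore not read as particular to these genes. Signs turned with array weights for Bmf (0.0067) and Xpc (0.0044), with centred arrays for Bmf (0.0103), Sesn2 (0.0078) and Xpc (0.012), with another quantile normalization for Bmf (0.0038), Sesn2 (0.021) and Xpc (0.026), and with the mean of probe sets for Mcl1 (-0.0277). With a mouse left out values spanned 0, from -0.0903 to 0.0582 for Aen, -0.086 to 0.076 for Bmf, -0.0734 to 0.0577 for Sesn2, -0.0915 to 0.0715 for Xpc and -0.0643 to 0.0223 for Zmat3. No paired analysis was possible because the groups share no mouse number. Signal over background cannot be judged without detection calls, which limits what a small change of a dim gene shows.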

Other observations

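Of 11 other BCL-2 family genes, 0 passed the threshold in either direction by limma (2 had an unadjusted p under 0.05), and their median change was 0.02. It was -0.02, -0.03 and 0.06 without Tie2-Cre mouse 1, no Cre mouse 6 and no Cre mouse 7. The BH3-only gene Hrk differed by -0.28 (adjusted p 0.0804) and the BAX-like gene Bok by 0.39 (adjusted p 0.221), both named after their values were seen. Without Tie2-Cre mouse 1 the list held 1 higher gene, Bok (0.59, adjusted p 0.0229). Of the 4 FOXO factors, which are known to drive Bcl2l11, 0 passed by limma and 1 had an unadjusted p under 0.05; this was Foxo1, with a change of -0.27 (SE 0.082, adjusted p 0.0738). The other CDK inhibitors named after their values were seen, Cdkn1b, Cdkn1c, Cdkn2c and Cdkn2d, differed by 0.06, -0.15, -0.43 and 0.03, with adjusted p of 0.761, 0.281, 0.0603 and 0.922, so that Cdkn2b was the only measured gene of the INK4 and CIP/KIP families past the threshold.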
